A study of Bos taurus with 170 samples.

Results

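The cyclin, mitotic kinase and spindle genes of bovine blastomeres were described in early embryos produced in vitro. The members were all gene symbols of the UMI count table that begin with CCNA, CCNB, CCND, CCNE, CDK, CDC25, AURK, PLK, BUB, CENP, KIF or ANAPC, together with CDC20, MAD2L1, ESPL1 and WEE1. This gave 113 of 10772 genes. A UMI (unique molecular identifier) is a random tag that marks 1 captured transcript molecule, so that copies made by PCR are counted once. The rule also takes in symbols that match only by their first letters, such as CDKAL1 and CCNDBP1, and these were kept apart as a group of 13 name matches. CCND1, CENPE, WEE2 and MOS were not analysed here.

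Blastomeres, the cells of the cleaving embryo, were taken from 6 Day 2 embryos near the 8-cell stage and from 8 Day 3 embryos around the 16-cell stage. All embryos came from slaughterhouse oocytes that were matured and fertilised in vitro, none was treated, and embryos were chosen for the timing of their early cleavages. SCRB-Seq, a method that tags the 3′ ends of transcripts with cell barcodes and UMI, was applied to single blastomeres. Of 170 cells, 161 had 2000 or more UMI and were kept, which were 43 Day 2 and 118 Day 3 cells.

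Cyclins bind and switch on cyclin-dependent kinases (CDK). CDK1 with B-type cyclins drives entry into mitosis, and Aurora and Polo-like kinases act on centrosomes, spindle and chromosomes. The spindle checkpoint holds the anaphase-promoting complex (APC/C) back until chromosomes are attached, after which the APC/C marks cyclin B and securin for destruction and separase cuts cohesin. Cleavage divisions of the early embryo rely at first on transcripts stored by the oocyte. In cattle the main wave of embryonic transcription falls around the 8-cell to 16-cell stage, when stored transcripts are also removed.

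Depth differed between the days. Day 2 cells held a median of 75114 UMI on genes (2634 to 357287) and Day 3 cells a median of 24016 (2078 to 108376). Summed per embryo, there were 438899 to 920192 UMI on Day 2 and 294912 to 600185 on Day 3. Levels below are UMI of an embryo per 1000000 of its gene UMI (CPM), and the embryo was the replicate. They compare molecules counted at the 3′ end and were not divided by transcript length, and lower levels from fewer cells with a transcript and from less transcript per cell cannot be told apart in embryo sums. Fold changes are Day 3 over Day 2 on the log2 scale, from the edgeR quasi-likelihood test with TMM scaling, given with a standard error and a p-value adjusted over all genes tested. TMM scaling put the median log2 fold change of all tested genes at -0.04, whereas scaling by library totals put it at -0.27. A fitted fold change can therefore sit above the ratio of the CPM values printed beside it.

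The libraries were made on 3 plates, and day was not balanced across them. Plate 1 held only Day3-E1 to Day3-E4, plate 2 held Day2-E5, Day2-E6, Day3-E7 and Day3-E8, and plate 3 held Day2-E1 to Day2-E4, Day3-E5 and Day3-E6. All Day 2 embryos carried a first set of cell barcodes, which among Day 3 embryos was shared by Day3-E1 and Day3-E2, while Day3-E4 to Day3-E8 carried a second set and Day3-E3 could not be placed. A total of 77 barcodes were used for 2 cells each, on different plates.

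Markers of the sampled cell type were present. The 9 measured oocyte and blastomere markers summed to 7794 to 8931 CPM in Day 2 and 2476 to 9331 CPM in Day 3 embryos, with Day3-E8 lowest. The 13 cumulus and granulosa markers summed to 470 to 595 CPM on Day 2 and 193 to 538 CPM on Day 3. HAS2 and STAR made up 92.5 to 96% of that sum in Day 2 embryos and 64.0 to 95.4% in Day 3 embryos, lowest in Day3-E8, where INHBA was at 46.3 CPM. INHA and DCN were at 0 in every Day 2 embryo. The 3 sperm markers reached at most 7.72 CPM. The part of these marker levels in the results below was not tested.

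The members' share of the molecules, much of which was AURKA, varied more between Day 3 than between Day 2 embryos. Their sum was 41915 ± 1043 CPM (SD, n = 6) on Day 2 and 36155 ± 5700 CPM (SD, n = 8) on Day 3. Day 2 embryos lay between 40546 and 43190 CPM. On Day 3 the sums ran from 27151 CPM in Day3-E8 and 28886 CPM in Day3-E4 to 42787 CPM in Day3-E1. The sum in Day3-E1 fell within the Day 2 range, with AURKA, at 22866 CPM, above every Day 2 embryo. AURKA alone had 20428 ± 909 CPM on Day 2 and 17158 ± 5361 CPM on Day 3, a spread close to that of the whole sum. A sum without AURKA was not formed, so the spread of the other members is not shown. Every member had a UMI in some embryo, and 94 had one in all 14 embryos.

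The group was dominated by 1 gene. AURKA, the Aurora A kinase of centrosomes and spindle poles, was the most abundant of all 10772 genes on both days. It held 2.04% of all gene UMI on Day 2 and 1.72% on Day 3, and 48.7% and 47.5% of the members' sum. CENPF, a large kinetochore protein that accumulates in G2, was at rank 6 on Day 2 and at rank 45 on Day 3, and CCNB1 (cyclin B1) moved from rank 34 to rank 26. AURKA, CENPF and CCNB1 were the 3 members with a mean level of 1000 CPM or more over all embryos. The median member lay at 96.8 CPM, and 55 reached 100 CPM.

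Of the 113 members, 88 passed the filter on low counts and were tested, and 25 were not. Tested members had mean levels of 17.4 to 18793 CPM and untested ones of 0.271 to 19.4 CPM. By edgeR, 21 of the 88 tested members (23.9%) were higher on Day 3, where 21.2% of all 5274 tested genes were. A further 15 (17%) were lower, against 11% of all tested genes, and 52 passed in neither direction. The median log2 fold change was 0.06 over the tested members and -0.04 over all tested genes. The share of higher members was thus close to the background, the share of lower members was above it, and the median showed no common direction. The same 21.2% and 11% of all tested genes are the background for the counts by role below. Each role holds few genes, and its counts were not tested against that background.

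Scaling had a part in which members passed. With library totals in place of TMM, 15 members were higher and 19 lower, which were 17% and 21.6% of those tested against 17% and 18.6% of all genes. They included 15 of the 21 and all 15 of the calls made with TMM. The 6 that did not pass then were AURKC, CCNB1, CDK2, CDKN2D, CENPW and KIF22. Plate had a part as well (in brackets, the share of tested members against that of all tested genes). With plate as a covariate 14 members were higher (15.9% against 17%) and 17 lower (19.3% against 14%), and 10 of the 36 calls were lost, namely CCNB1, CDK1, CDK2, CDK12, CENPW, KIF20A, KIF22, ANAPC10, CDK5 and CDK7. Within plate 2 alone all 36 kept their direction, of which 16 higher and 5 lower passed, and over all members 18 were higher (21.2% against 19.4%) and 6 lower (7.06% against 9.48%). Within plate 3 alone all but KIF22 kept their direction, 10 higher and 12 lower passed, and over all members 16 were higher (17% against 15%) and 15 lower (16% against 9.44%).

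Other fits made fewer calls among the members and among all genes. With the replicate number as a block, 7 members were higher (7.95% against 11%) and 2 lower (2.27% against 3.92%). In cells thinned to 10000 UMI, 10 of the 63 tested members were higher (15.9% against 18.6%) and 1 was lower (1.59% against 7.95%). Of the members called in the main fit, 16 higher and 12 lower were tested in thinned cells. All of them kept their direction, and 10 higher and 1 lower passed. In the first barcode set, only Day3-E1 and Day3-E2 stood for Day 3, and 92 members were tested. Of these, 5 were higher (CCNE1, CDK1, CDK12, CDK20 and CDK9, 5.43% against 5.28%) and 0 were lower (where 0.388% of all genes were). The 35 members called in the main fit that could be tested here kept their direction. At an unadjusted p under 0.05 that edgeR fit had 16 higher and 4 lower members.

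**Figure D1:**
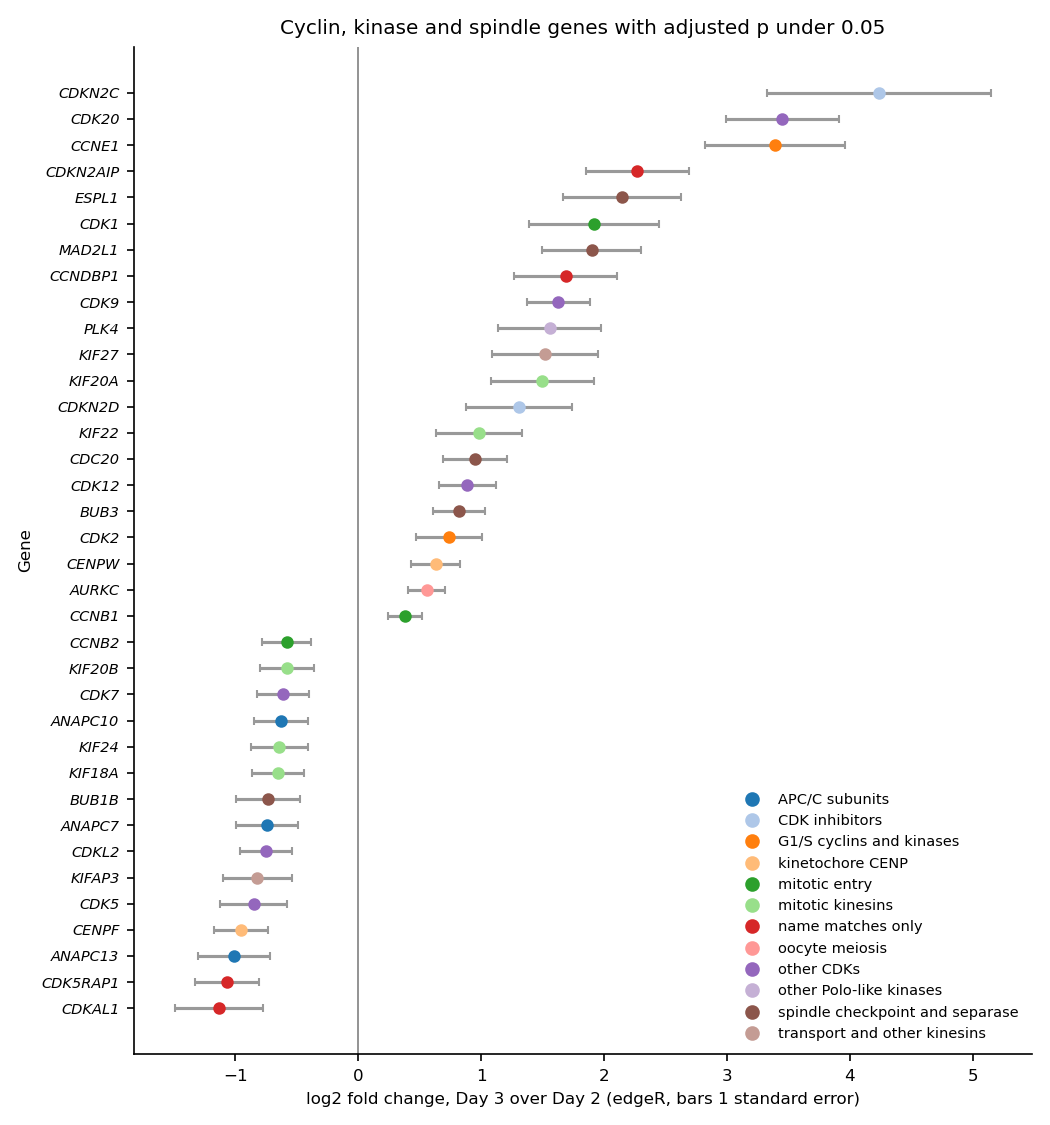
Log2 fold change (Day 3 over Day 2, edgeR, bars are standard errors) of the 36 members that passed the adjusted p threshold of 0.05, coloured by role. CDKN2C, CDK20 and CCNE1 lie highest, at 4.24, 3.45 and 3.39, and CDKAL1 lowest, at -1.13, so that the rises span a wider range than the falls.

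Of the 10 genes of mitotic entry 9 were tested, of which CDK1 and CCNB1 passed as higher and CCNB2 as lower. CDK1, the kinase itself, ranged from 82.2 to 125 CPM on Day 2 (median 114) and from 100.0 to 770 CPM on Day 3 (median 201). Day3-E1 and Day3-E3, at 100.0 and 107 CPM, and Day3-E6, at 118 CPM, lay inside the Day 2 range, while Day3-E8, Day3-E2 and Day3-E4 were at 770, 543 and 406 CPM. By edgeR the difference was 1.92 on the log2 scale (SE 0.53, adjusted p = 0.0112). With plate as a covariate the adjusted p was 0.101, and within plate 3 alone it was 0.400.

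CCNB1 started at a high level and changed little. Its range was 1765 to 2195 CPM on Day 2 (median 1858) and 1743 to 2404 CPM on Day 3 (median 2083), with overlap of the groups. The log2 fold change of 0.38 (SE 0.14, adjusted p = 0.0414) was lost with library totals (adjusted p = 0.547), without the filter (0.234) and in 12 of the 14 fits that left out 1 embryo. CCNB2, the second B-type cyclin, was at 381 to 588 CPM on Day 2 (median 409) and 103 to 398 CPM on Day 3 (median 243). It was lower by a log2 fold change of -0.58 (SE 0.20, adjusted p = 0.0305), and its lowest level was in Day3-E8. Of the 14 fits that left out 1 embryo, 2 lost the call.

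AURKA itself showed the widest spread between Day 3 embryos in absolute terms. Day 2 embryos lay at 19219 to 21839 CPM (median 20383) and Day 3 embryos at 8760 to 22866 CPM (median 18960). Day3-E8 (8760 CPM), Day3-E4 (10296 CPM) and Day3-E2 (14655 CPM) were well below every Day 2 embryo and Day3-E7 (18417 CPM) just below, and Day3-E1 (22866 CPM) and Day3-E3 (22356 CPM) were above all of them. The log2 fold change was -0.03 (SE 0.17, adjusted p = 0.906), and its sign turned within plate 3, in the first barcode set and without Day3-E4 or Day3-E8.

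The other mitotic entry genes did not pass the test. Cyclin A2 (CCNA2) had 305 ± 37.6 and 280 ± 74.1 CPM, with a log2 fold change of 0.18 that turned to -0.12 with library totals (adjusted p = 0.569 and 0.640). PLK1, the Polo-like kinase that acts from centrosome maturation to cytokinesis, had 253 ± 18.9 and 217 ± 64.3 CPM, and its log2 fold change of 0.07 (adjusted p = 0.817) became -0.22 with library totals. For CDC25B and CDC25C, the phosphatases that release CDK1 from inhibition, the log2 fold changes were -0.24 and -0.01 (adjusted p = 0.494 and 0.953), and that of CDC25C was 0.01 by DESeq2. AURKB, the Aurora kinase of the chromosomal passenger complex, had a log2 fold change of 0.45 (SE 0.21, adjusted p = 0.107, and 0.0443 by DESeq2). WEE1, which adds the inhibitory phosphate to CDK1, was nearly undetected on Day 2, with 4 UMI in 6 embryos against 38 UMI in 8 Day 3 embryos. It fell below the filter, and in the fit without a filter its adjusted p was 0.00152, where 14% of all genes were higher and 6.1% lower.

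AURKC, the Aurora kinase best known from meiosis in germ cells, was detected at 315 to 426 CPM on Day 2 and 286 to 582 CPM on Day 3. Its log2 fold change was 0.56 (SE 0.15, adjusted p = 0.00984), and the call was lost with library totals. In cells thinned to 10000 UMI the log2 fold change was 0.18 (adjusted p = 0.639). Day3-E8 had the lowest level of all embryos. PLK4, the kinase that starts centriole duplication, rose from 27.6 ± 10 to 64.0 ± 29.8 CPM (log2 fold change 1.56, SE 0.42, adjusted p = 0.00993). PLK2 and PLK3, the other Polo-like kinases, had log2 fold changes of 0.12 and -0.32 and did not pass.

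Of the 9 G1/S genes 3 were tested, and the 2 that passed, CCNE1 and CDK2, were higher on Day 3. CCNE1, the E-type cyclin that partners CDK2 at the start of S phase, was at 3.84 to 23.5 CPM on Day 2 (median 12.5) and at 25 to 242 CPM on Day 3 (median 89.7). Every Day 3 embryo was above every Day 2 embryo, although Day3-E1, at 25 CPM, was close to the highest Day 2 value. This was a log2 fold change of 3.39 (SE 0.57, adjusted p = 4.49e-04). CCNE1 was 1 of 4 tested members with all Day 3 embryos above all Day 2 embryos, with BUB3, CDK9 and CDK20, a pattern that 3.98% of all tested genes showed.

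CDK2 was already at 145 ± 27.8 CPM on Day 2 and reached 197 ± 66.8 CPM on Day 3 (log2 fold change 0.74, SE 0.27, adjusted p = 0.0414). The groups overlapped, and the call was lost with library totals and in 12 of the 14 fits without 1 embryo. CDC25A, the phosphatase that acts on CDK2, had 95.0 ± 14 and 70.1 ± 24.6 CPM (log2 fold change -0.18, adjusted p = 0.503). CCNE2, below the filter, had 9.48 ± 2.53 CPM on Day 2 and 26.7 ± 15 CPM on Day 3, and its adjusted p in the fit without a filter was 0.00912. The D-type cyclins and their kinase were close to the detection limit: CCND2 had 4 UMI on Day 2 and 2 on Day 3, CCND3 had 16 on each day, and CDK4 had 22 and 44.

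Of the 7 CDK inhibitor genes only 3 were tested. CDKN2C, which binds CDK4 and CDK6, was at 0 to 11 CPM on Day 2 (median 8.15) and at 3.33 to 380 CPM on Day 3 (median 75.4). Day3-E4 had the highest level and Day3-E1 the lowest of Day 3, inside the Day 2 range. The log2 fold change of 4.24 (SE 0.91, adjusted p = 0.00236) was the largest among tested members. CDKN2D, of the same family, had a log2 fold change of 1.31 (SE 0.43, adjusted p = 0.0276) that was lost with library totals, while CDKN1B, which inhibits CDK2 complexes, went from 103 ± 12 to 53.1 ± 26.3 CPM without passing (log2 fold change -0.71, adjusted p = 0.0678).

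Of the 6 spindle checkpoint and separase genes, 4 were higher and 1 was lower. Its sum was 1385 ± 69.0 CPM on Day 2 and 2228 ± 665 CPM on Day 3, with Day3-E8 and Day3-E4 at 3236 and 3123 CPM. MAD2L1, the checkpoint protein that sequesters CDC20, was at 187 to 269 CPM on Day 2 (median 232) and 228 to 1426 CPM on Day 3 (median 541). Only Day3-E1, at 228 CPM, was within the Day 2 range, and Day3-E4 was the highest. Its log2 fold change was 1.90 (SE 0.40, adjusted p = 0.00226).

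ESPL1, which encodes separase, was at 48.9 to 84.3 CPM on Day 2 (median 62.6) and 40.0 to 479 CPM on Day 3 (median 228). Day3-E1 was below all Day 2 embryos, Day3-E3 was just inside their range at 83.8 CPM, and the other Day 3 embryos were above it, with Day3-E8 highest. Its log2 fold change was 2.2 (SE 0.48, adjusted p = 0.00320).

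CDC20, the mitotic activator of the APC/C, rose from 180 ± 17.1 to 276 ± 76.1 CPM (log2 fold change 0.95, SE 0.26, adjusted p = 0.0113). BUB3, a checkpoint adaptor at kinetochores, was at 504 to 680 CPM on Day 2 and at 707 to 1156 CPM on Day 3 without overlap (log2 fold change 0.82, SE 0.21, adjusted p = 0.00759). Its partners did not follow. BUB1B, the BubR1 pseudokinase of the checkpoint complex, was lower, at 192 ± 31.6 and 98.4 ± 50.4 CPM (log2 fold change -0.73, SE 0.26, adjusted p = 0.0384), a call lost in 6 of the 14 fits without 1 embryo. BUB1, a checkpoint kinase at kinetochores, had 96.9 ± 20.7 and 92.2 ± 37.4 CPM (log2 fold change 0.24, adjusted p = 0.575). Its sign turned with library totals and with plate as a covariate.

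The APC/C subunits themselves showed 3 lower and 0 higher of 8 tested, with a median log2 fold change of -0.39. Their sum was 1037 ± 42.9 CPM on Day 2 and 740 ± 308 CPM on Day 3, down to 250 CPM in Day3-E8. ANAPC13, a small scaffold subunit, was at 136 to 189 CPM on Day 2 (median 165) and at 18.0 to 132 CPM on Day 3 (median 54.5), with no overlap (log2 fold change -1.01, SE 0.29, adjusted p = 0.0138). ANAPC7, of the tetratricopeptide lobe, and ANAPC10, which helps to bind substrates, had log2 fold changes of -0.74 and -0.63 (SE 0.25 and 0.22, adjusted p = 0.0314 and 0.0357), and these calls were lost in 3 and 9 of the 14 fits without 1 embryo. The other 5 subunits lay between -0.66 and 0.05 on the log2 scale.

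**Figure D2:**
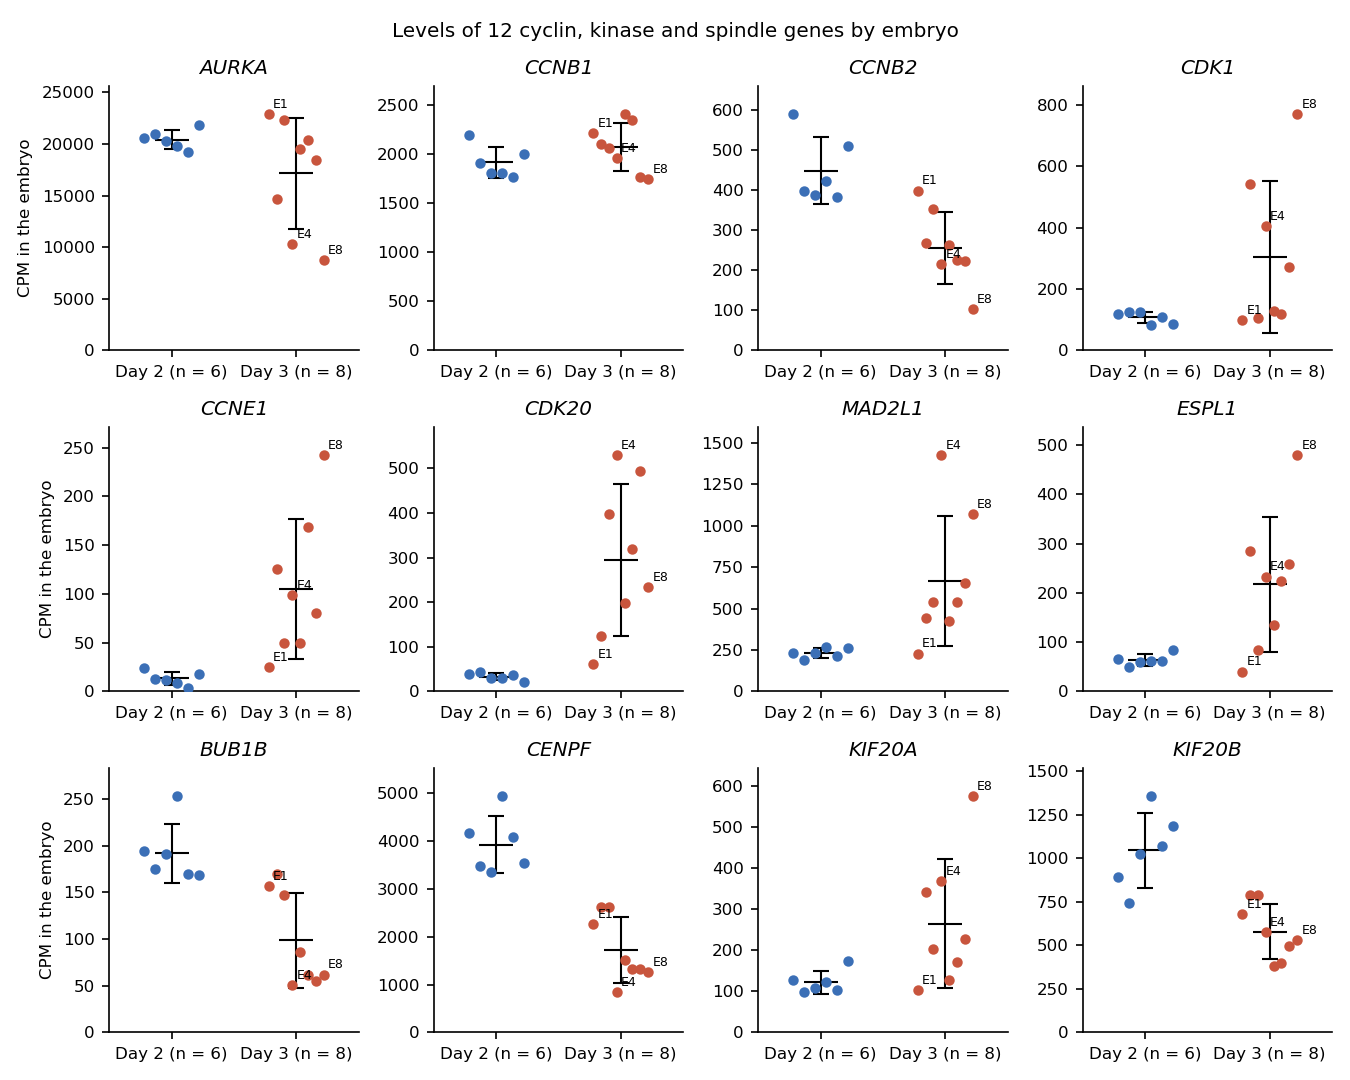
Levels of 12 members in CPM for each embryo (points), with the mean and SD of the 6 Day 2 and 8 Day 3 embryos in black and Day3-E1, Day3-E4 and Day3-E8 labelled. AURKA, CCNB1 and CENPF lie above 1000 CPM on Day 2, and the Day 3 points spread more widely than the Day 2 points for CDK1, MAD2L1, ESPL1 and KIF20A, with Day3-E1 at or near the Day 2 level.

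Among the 14 genes named for the centromere, CENPF was both the most abundant and the one that fell. It was at 3361 to 4935 CPM on Day 2 (median 3804) and at 849 to 2632 CPM on Day 3 (median 1420), without overlap. Day3-E2 and Day3-E3 held the highest Day 3 levels at 2625 and 2632 CPM, and Day3-E4 the lowest. Its log2 fold change was -0.95 (SE 0.22, adjusted p = 0.00348). CENPF and 6 other tested members, CDKAL1, CDK5RAP1, ANAPC13, CDK5, CDKL2 and KIF18A, had all Day 3 embryos below all Day 2 embryos, as 5.38% of all tested genes did.

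CENPA, the histone H3 variant that marks the centromere, was low at 38.4 ± 11 and 43.9 ± 17 CPM (log2 fold change 0.46, SE 0.27, adjusted p = 0.206). CENPW, of the inner kinetochore, was the only other CENP gene of 13 tested to pass, with a log2 fold change of 0.63 (SE 0.20, adjusted p = 0.0246) that was lost with library totals. The remaining 11 tested CENP genes, among them CENPC, CENPT and CENPL, did not pass.

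The 13 tested mitotic kinesins were split as well, with 2 higher and 3 lower. KIF20A, needed for cytokinesis at the central spindle, was at 97.8 to 173 CPM on Day 2 (median 116) and 102 to 574 CPM on Day 3 (median 215), with Day3-E8 highest (log2 fold change 1.5, SE 0.42, adjusted p = 0.0120). With plate as a covariate the adjusted p of KIF20A was 0.0622, and within plate 3 alone its log2 fold change was 0.57 (adjusted p = 0.109). KIF20B, a related midbody kinesin, went the other way, from 743 to 1356 CPM on Day 2 (median 1047) to 379 to 791 CPM on Day 3 (median 552), a log2 fold change of -0.58 (SE 0.22, adjusted p = 0.0490).

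KIF18A, which dampens chromosome oscillation at the metaphase plate, went from 396 ± 24.7 to 216 ± 93.5 CPM (log2 fold change -0.65, SE 0.21, adjusted p = 0.0272). In cells thinned to 10000 UMI its log2 fold change was -0.27 (adjusted p = 0.516). KIF24, a kinesin of centrioles, had a log2 fold change of -0.64 (SE 0.23, adjusted p = 0.0393), lost in 10 of the 14 fits without 1 embryo, and KIF22, a chromokinesin, had 0.98 (SE 0.35, adjusted p = 0.0435), lost with library totals. KIF11, the motor that pushes spindle poles apart, had 81.3 ± 23.9 and 96.7 ± 15 CPM (log2 fold change 0.54, SE 0.24, adjusted p = 0.0938, and 0.0475 by DESeq2). Of the 7 tested transport kinesin genes, KIF27 rose (log2 fold change 1.52, adjusted p = 0.0139) and KIFAP3, the adaptor of kinesin-2, fell (log2 fold change -0.82, adjusted p = 0.0321). KIFAP3 lost its call in 3 of the 14 fits without 1 embryo.

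The CDK genes without a role in mitotic entry or G1/S held 3 higher and 3 lower of 12 tested. CDK20, also called cell cycle-related kinase, was at 20.5 to 43.5 CPM on Day 2 (median 33.8) and 61.6 to 529 CPM on Day 3 (median 276) without overlap, with Day3-E1 lowest and Day3-E4 highest of Day 3. Its log2 fold change of 3.45 (SE 0.46) had the smallest adjusted p of all members, 9.08e-05. In the first barcode set the log2 fold change of CDK20 was 1.64 (adjusted p = 0.0206).

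CDK9, the kinase of the elongation factor P-TEFb, was at 102 to 184 CPM on Day 2 (median 155) and 238 to 515 CPM on Day 3 (median 377), without overlap (log2 fold change 1.63, SE 0.26, adjusted p = 3.25e-04). CDK12, which also phosphorylates RNA polymerase II, had a log2 fold change of 0.89 (SE 0.23, adjusted p = 0.00800). CDK7, the kinase of the general factor TFIIH that also activates other CDK, went from 284 ± 28.2 to 159 ± 70.4 CPM (log2 fold change -0.61, SE 0.21, adjusted p = 0.0352). CDK5, best known from neurons, was at 298 to 408 CPM on Day 2 (median 352) and 38.9 to 292 CPM on Day 3 (median 171), without overlap (log2 fold change -0.85, SE 0.27, adjusted p = 0.0243). CDKL2 fell likewise, from 145 ± 24.6 to 72.5 ± 24.1 CPM (log2 fold change -0.75, SE 0.21, adjusted p = 0.0126).

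Of the 10 tested genes that match by name only, 2 were higher and 2 lower. CDKN2AIP, a regulator of the p53 pathway, and CCNDBP1, a cyclin D-binding protein, had log2 fold changes of 2.27 and 1.69 (adjusted p = 8.18e-04 and 0.00665). CDKAL1 and CDK5RAP1, both enzymes that modify tRNA, had -1.13 and -1.07 (adjusted p = 0.0240 and 0.00583). CDK5RAP1, whose Day 3 levels were 9.70 to 35.0 CPM, was below 39.7 CPM, its lowest Day 2 level, in every Day 3 embryo.

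The members that changed did so to unequal degree in the Day 3 embryos. Day3-E1 had the lowest Day 3 level for 13 of the 21 higher members and the highest Day 3 level for 10 of the 15 lower ones. It lay within the Day 2 range for 14 of the 36. In contrast, Day3-E8 and Day3-E4 had the highest level for 8 and 7 of the higher members and the lowest for 7 and 5 of the lower ones. The same counts were not made over all genes called, so these positions cannot be read as particular to the members. In the study's time-lapse record, the third cleavage came latest in Day3-E1 and earliest in Day3-E8 and Day3-E4 among Day 3 embryos. The part of cleavage timing in these levels was not tested. Without Day3-E1, all 21 and all 15 calls were kept.

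The 2 Day 2 embryos collected closest to the third cleavage, Day2-E5 and Day2-E6, lay at opposite ends of the Day 2 range in a sum that was mostly AURKA. They were also the Day 2 embryos of plate 2. Of 27 G2/M core genes, among them CCNA2, CCNB1, CCNB2, CDK1, AURKA, AURKB, PLK1, CENPF and most of the mitotic kinesins, the sum was 31343 CPM in Day2-E5, the lowest of Day 2, and 34133 CPM in Day2-E6, the highest. Next to them lay Day2-E3 at 31604 CPM and Day2-E4 at 33697 CPM, so neither stood apart. AURKA alone had the same extremes of Day 2, at 19219 CPM in Day2-E5 and 21839 CPM in Day2-E6. Embryo sums of the other 26 core genes were not compared. On Day 3 the core sum was 19549 to 33387 CPM.

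Variation between cells of the same embryo was measured in cells with 10000 or more UMI, which left 37 Day 2 and 103 Day 3 cells. For each list the variance of the summed UMI beyond counting error was expressed as a coefficient of variation (CV) around the level of the cell's own embryo, in which deeper cells weigh more. For the 27 core genes the CV was 5.93% on Day 2 (2.1 to 7.95% in single embryos) and 11% on Day 3 (6.48 to 15.8%). In cells thinned to 10000 UMI it was 12% on Day 2 and 14% on Day 3, so that most of the difference between the days was not seen at equal depth. Without AURKA the CV over all cells was 8.44% on Day 2 and 6.65% on Day 3. On Day 2, however, Day2-E5 was at 17% and every other embryo at 7.19% or below. The median over single embryos without AURKA was 5.16% on Day 2 and 6.93% on Day 3, the reverse order. With AURKA that median was 6.61% and 12.1%. The CV over all cells was 11% and 19.9% for the APC/C subunits and 4.13% and 8.40% for the other CDK genes.

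The core genes as a whole did not vary in 1 direction between sister blastomeres. Over the 351 pairs of core genes, the mean Pearson correlation between cells of the same embryo, after removal of the embryo level, was 0.010 on Day 2 with 48.7% of pairs positive, and 0.003 on Day 3 with 50.1% positive. Over all 13904901 pairs of tested genes the means were 0.001 and 0.002, with 49.7% and 49.5% positive. For the APC/C subunits the means were 0.087 and 0.018 (28 pairs), and for the transport kinesins 0.046 and 0.076 (21 pairs). These were above the means of the core genes. For the other CDK genes the mean was -0.001 on both days (66 pairs). A mean over pairs of both signs does not show whether some of the genes went together. The spread of the correlations was 0.25 (SD) over pairs of the 22 core genes with 10 or more UMI per Day 2 cell and 0.22 over pairs of all such genes. The mean for core pairs stayed between 0.006 and 0.021 on Day 2 and between -0.002 and 0.007 on Day 3 over other UMI minimums, thinned cells and the omission of AURKA, the deepest cells or 1 embryo. CCNB1 had correlations of 0.11 and -0.05 with CCNB2, 0.03 and -0.02 with CDK1, and 0.21 and 0.02 with CDC20 on Day 2 and Day 3. These cells share libraries, most core genes had under 20 UMI per Day 3 cell, and the common variation that this depth can show was not measured.

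**Figure D3:**
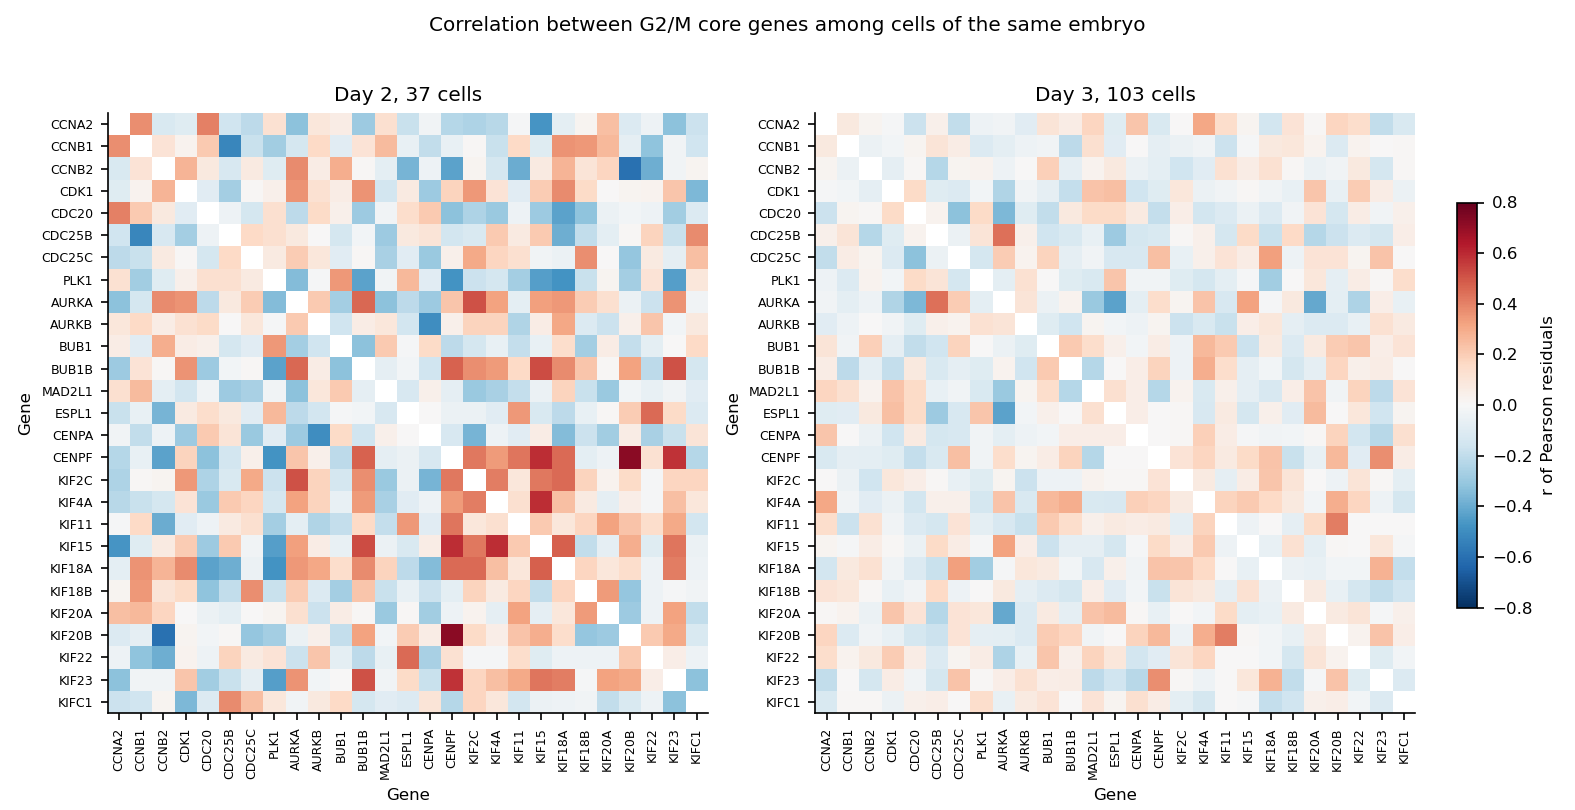
Pearson correlations between the 27 G2/M core genes over 37 Day 2 cells (left) and 103 Day 3 cells (right), with the embryo level removed and colour running from negative to positive. The mean over the 351 pairs was 0.010 and 0.003. On Day 2 AURKA, BUB1B, CENPF, KIF2C, KIF4A, KIF15, KIF18A and KIF23 were positive in all 28 mutual pairs, at 0.17 to 0.59. This set was picked from these correlations after they were seen, so its common sign was not tested. In thinned Day 2 cells 24 of the 28 pairs were positive, with a mean of 0.13. The counting error added by thinning weakens any correlation.

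Some core genes went together in Day 2 cells, a set picked here after its values were seen and so not tested. AURKA, BUB1B, CENPF, KIF2C, KIF4A, KIF15, KIF18A and KIF23 were positive in all 28 of their pairs on Day 2, with a mean of 0.41, and in 28 without Day2-E5, where the mean was 0.42. PLK1 was negative with all 8 of them, at -0.48 to -0.14. On Day 3 the mean over the 28 pairs was 0.11, and 22 were positive.

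The pattern was weaker after thinning. Thinning also leaves fewer UMI per gene, and the added counting error weakens any correlation, so the fall cannot be assigned to unequal depth. In Day 2 cells thinned to 10000 UMI, 24 of the 28 pairs were positive with a mean of 0.13, and PLK1 was negative with 1 of the 8 genes. The summed level of the set had a positive Spearman correlation with cell UMI in 4 of 6 Day 2 embryos (median 0.50) and in 7 of 8 Day 3 embryos (median 0.29). The part of cell depth in these correlations was not tested further.

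Pairs with CENPF were weaker after thinning as well, with the same limit. CENPF and KIF20B had a correlation of 0.72 on Day 2 and 0.26 on Day 3, and 0.44 and 0.20 when each cell was thinned to 10000 UMI. Without Day2-E5 the Day 2 value was 0.51. CENPF and KIF23, a kinesin of the central spindle, had 0.58 and 0.37, which were 0.27 and 0.29 after thinning. For CENPF with KIF15 and KIF4A with KIF15, the Day 2 values of 0.59 and 0.59 were 0.06 and -0.18 after thinning. CENPF rose with cell depth as well, as its level had a positive Spearman correlation with cell UMI in 6 of 6 Day 2 and 8 of 8 Day 3 embryos, with medians of 0.60 and 0.24.

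At the depths sequenced, AURKA varied more between cells of a Day 3 embryo than between cells of a Day 2 embryo. The ratio of the highest to the lowest cell of an embryo had a median of 1.52 on Day 2 (1.33 to 1.58) and 2.61 on Day 3 (1.42 to 5.41). The widest span was in Day3-E4, where cells ran from 2681 to 14498 CPM, and the extra CV of AURKA was 5.07 to 9.75% in Day 2 embryos and 10.0 to 30.6% in Day 3 embryos. Counting error is larger in the shallower Day 3 cells and enters the ratio, but is removed from the CV. CENPF had median ratios of 2.4 and 3.41, up to 14 in Day3-E4.

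**Figure D4:**
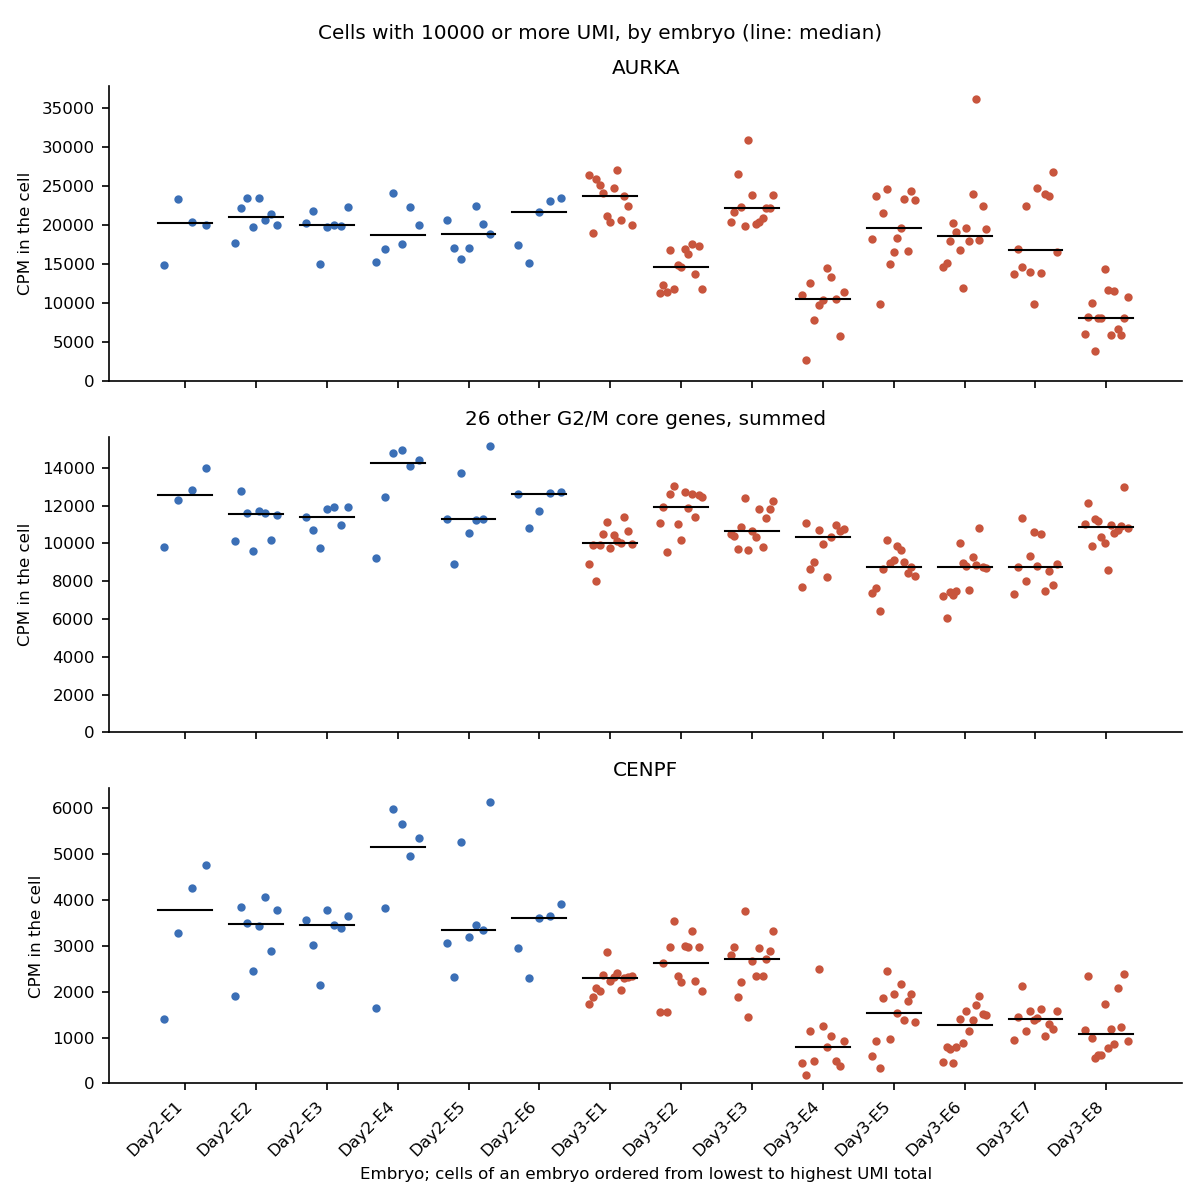
Levels in single cells with 10000 or more UMI, in CPM, for AURKA, for the sum of the other 26 G2/M core genes and for CENPF, with cells of each embryo ordered by their UMI and a line at the median. At the depths sequenced, cells spread further apart in AURKA in Day 3 embryos, by ratio most in Day3-E4 (2681 to 14498 CPM). The sum of the other core genes had an extra CV of 8.44% on Day 2 and 6.65% on Day 3. Its median over single embryos was 5.16% and 6.93%, with Day2-E5 at 17%.

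Among Day 3 cells AURKA varied against most members that were higher on Day 3. Its mean correlation was -0.166 with the 21 higher members, 5 of which were positive, and 0.094 with the 15 lower ones, 11 of which were positive. Over all 1117 genes called higher and 595 called lower its means were -0.157 and 0.107, close to those over the members. On Day 2 its mean with the higher members was -0.040, with 9 of 21 positive. With ESPL1 it was -0.43 and with KIF20A -0.41, which were -0.25 and -0.36 after thinning. On Day 2 the same pairs had -0.21 and 0.13. Among Day 3 cells the higher members had a mean correlation of 0.037 with one another over 210 pairs and of -0.040 with the lower members over 315 pairs. Over all genes called higher or lower, the corresponding means were 0.049 and -0.033, close to those of the members.

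For single genes, the median extra variation between cells of 1 embryo was close to, and slightly below, that over all genes past the same UMI minimum. Levels were not matched beyond this minimum. Of genes with 10 or more UMI per cell, 60 members had a median CV of 7.75% on Day 2, where it was 8.76% over 2511 genes. On Day 3 the 14 members had 18.9%, against 20.8% over 669 genes. CCNB1 was steady at 4.60% and 11%, AURKA had 7.63% and 17%, CENPF 18.1% and 17.9%, and MAD2L1 3.07% and 24.6%.

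Other genes of the mitotic pathway, from a list of 87 symbols of which 65 were in the table, were as divided as the members. Of 53 tested, 12 rose (22.6%) and 9 fell (17%), with a median of -0.16 on the log2 scale. Of all tested genes 21.2% were higher and 11% lower. The share that rose was thus close to the background and the share that fell was above it. CKS2, a small subunit of CDK complexes, rose most in absolute level, from 2278 to 3598 CPM on Day 2 (median 2686) to 3279 to 13886 CPM on Day 3 (median 7885), and was second of all genes on Day 3 (log2 fold change 1.95, SE 0.35, adjusted p = 7.16e-04). Near-identical copies of this gene could share its reads. MIS12, of the outer kinetochore, NCAPD2, of condensin, and UBE2S, which extends ubiquitin chains for the APC/C, had log2 fold changes of 3.1, 1.87 and 1.6 (adjusted p = 0.00224, 0.00658 and 0.00845).

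Next were the pathway genes with the lowest fold changes. CKAP5, a microtubule polymerase, was at 312 to 524 CPM on Day 2 (median 391) and 51.7 to 275 CPM on Day 3 (median 137), without overlap (log2 fold change -1.24, SE 0.30, adjusted p = 0.00592). PBK, a mitotic kinase, ZWILCH, of the checkpoint complex that recruits dynein, and TTK, the kinase that starts checkpoint signalling, had -1.09, -1.09 and -1.03 (adjusted p = 0.00293, 0.0119 and 0.0146). The checkpoint genes were split across both lists, with MAD2L1, BUB3 and CDC20 higher and BUB1B, TTK and ZWILCH lower.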

How the data were processed

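The deposited table holds UMI counts per gene and cell. Per the labels and the study's methods, the authors prepared SCRB-Seq libraries, aligned reads with STAR 2.5.2b to Bos tau7 with ERCC spike-ins, and counted UMI with the Drop-seq pipeline. Their normalized table was not used.

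Cells with under 2000 UMI were left out (9 of 170), and 92 ERCC rows stayed out of library sizes and tests. UMI were summed per embryo, so the replicate was the embryo (6 Day 2, 8 Day 3). Depth is given in the report. The p-values measure the spread between these embryos. Genes were filtered with filterByExpr and tested by edgeR 4.0.16 (quasi-likelihood, TMM, Benjamini-Hochberg over all tested genes, threshold 0.05), with DESeq2 1.42.0 as an alternative. The tests were checked on simulated data.

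Variation between cells used cells with 10000 or more UMI, as variance beyond Poisson error and as correlations of residuals (counts minus those expected from the embryo level and cell depth, over the square root of the latter). Alternatives were no TMM, no filter, a replicate block, plate, barcode set, UMI minimums, thinning and leaving out each embryo. Fits within plate 2 or plate 3 were chosen after seeing the data.

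Members and gene lists were chosen with earlier results of these data known. Named genes were a fixed set of cyclins, kinases and spindle genes, the 12 largest changes in each direction among called members, and 4 in each direction for the pathway list. CDK7, CDK12, CDKN1B, CDKN2D, CENPW, PLK2, PLK3, KIF4A, KIF15, KIF20B, KIF2C, KIF22, KIF23 and INHBA were named after their values were seen.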

Additional observations from a re-analysis of the deposited data

Results flagged for a closer look

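Single embryos stood apart from the rest of their day for 5 of 106 combinations of a named gene and a day, by the gap of the highest or lowest embryo to its neighbour relative to the range. Chance flags about 1 in 20 such groups, so this number is about what chance gives. CDKN2C was at 380 CPM in Day3-E4. BUB1B and TTK were both highest in Day2-E4, at 253 and 271 CPM, and BUB3 was lowest of Day 2 in Day2-E6, at 504 CPM. CCND2 was at 6.78 CPM in Day3-E2, which is 2 UMI, and at 0 in the other Day 3 embryos.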

How the results depend on the processing

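The counts of 21 higher and 15 lower members came to 7 and 2 with the replicate block, to 5 and 0 in the first barcode set, and to 10 and 1 in cells thinned to 10000 UMI, where 16 and 12 of them were tested. Calls over all genes were fewer in these fits too, as the shares in the report show. Beside the 0, edgeR had 4 lower members at an unadjusted p under 0.05. Within plate 2 alone, 6 members were lower. Leaving out 1 embryo gave 16 to 22 higher and 9 to 19 lower members, with 9 lower without Day2-E4 or without Day3-E4. Lower pathway genes numbered 9, and 14 by DESeq2 and 16 with library totals. DESeq2 kept all 36 member calls. Same-numbered embryos of both days share only a number, since the correlations of their deviations were -0.132 to 0.0257, so the replicate block pairs nothing known.

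Among named genes, signs turned for genes that did not pass the test, and besides for KIF22, which passed and was the only called member to turn, within plate 3. With library totals the log2 fold changes were -0.12 for CCNA2, -0.22 for PLK1 and -0.07 for BUB1. Within plate 3 they were -0.09 for CCNA2, 0.36 for CDC25B, 0.14 for AURKA, -0.26 for PLK1 and -0.73 for BUB1. In the first barcode set they were 0.17 for CDC25A, 0.16 for CDC25C, 0.03 for AURKA and -0.03 for PLK1. With the replicate block they were 0.04 for CDC25C and -0.21 for PLK1, with plate as a covariate -0.26 and on plates 2 and 3 -0.27 for BUB1, by DESeq2 0.01 for CDC25C, and without the filter -0.02 for PLK1. Leaving out 1 embryo gave ranges of -0.10 to 0.03 for AURKA, -0.10 to 0.01 for CDC25C and -0.09 to 0.14 for PLK1. The cause was not tested.

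The CV of the core genes on Day 2 was 11.9% in thinned cells and 8.44% without AURKA, and on Day 3 it was 6.65% without AURKA. The median over single embryos without AURKA was 5.16% on Day 2 and 6.93% on Day 3. With AURKA, leaving out 1 embryo gave 5.48 to 6.64% on Day 2 and 9.63 to 12.5% on Day 3. Depth limits the Day 3 cells most, and day, plate and barcode set cannot be fully told apart.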

Other observations

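Members below the filter on low counts held further differences in the fit without a filter, where 14% of all genes were higher and 6.1% lower. KIFC2, a minus-end kinesin, had 2.64 to 4.56 CPM on Day 2 and 0 to 61.4 CPM on Day 3, with 14 and 96 UMI in all (adjusted p = 4.75e-04). CCNB1IP1, a ubiquitin ligase named for binding cyclin B1, had 14 to 27.2 CPM on Day 2 and 0 to 12 CPM on Day 3, with 72 and 17 UMI (adjusted p = 0.0195), and all Day 3 embryos were below all Day 2 embryos. Both were named after their values were seen.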
